A study of Mus musculus with 38 samples.

Results

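Clade A of the serpins, as it was measured in mouse liver, was followed through 7 transcripts. The members were 9 genes chosen by symbol: Serpina3k, Serpina3m, Serpina3n, Serpina4-ps1, Serpina6, Serpina7, Serpina9, Serpina10 and Serpina12. A member was measured where the platform annotation gave a probe set to its symbol alone, which held for 7 of the 9 and set them among 17729 genes tested. Serpina3k and Serpina3m were skipped and are named only. The RefSeq gene table places 8 of the 9 members on chromosome 12 and Serpina7 on chromosome X, and lists Serpina4-ps1 as a transcribed pseudogene, so the name of secreted proteins does not cover its transcript.

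Male CD-1 mice, an outbred stock aged 6 to 8 weeks, had received a compound in the feed or control feed for 4 or 30 days, and liver RNA was hybridised to Affymetrix mouse genome arrays (38 arrays, 10 groups). The conazole experiment held propiconazole at 2500 ppm, triadimefon (spelled tridimefon in the labels) at 1800 ppm and control feed, with 3 arrays per group and day. The phenobarbital experiment held phenobarbital at 850 ppm and control feed of its own, with 5 arrays per group and day. Daily intakes were 349.6 ± 46.7, 257.1 ± 33.5 and 97.2 ± 5.9 mg/kg for propiconazole, triadimefon and phenobarbital, so doses were not matched. Propiconazole and triadimefon are triazole fungicides, phenobarbital is the classical barbiturate inducer of liver enzymes, and the study's title asks how tumorigenic conazoles differ from phenobarbital in liver transcripts. The labels call the arrays biological replicates without naming separate animals, and array batch cannot be told apart from experiment.

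Serpins are proteins that trap a target protease by a large change in their own shape after it has cut their reactive centre loop. Several clade A members are made by hepatocytes and secreted into plasma, and some have lost protease inhibition and carry hormones instead. Serpina6 is corticosteroid-binding globulin and Serpina7 is thyroxine-binding globulin. Serpina10 is the protein Z-dependent inhibitor of coagulation factor Xa, and Serpina12, or vaspin, inhibits kallikrein 7. Serpina3n is a mouse relative of human alpha-1-antichymotrypsin and an acute phase protein, human SERPINA9 is known from germinal centre B cells, and human SERPINA4 is the kallikrein inhibitor kallistatin.

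Promoter sequence is shown for the 3 measured members that the RefSeq promoter table (GRCm38.p6) held, each as the 250 bases before the annotated start site, 5′ to 3′ on the gene's strand. Serpina12 lies on the minus strand at chr12:104044444-104044693, Serpina3n on the plus strand at chr12:104406458-104406707 and Serpina7 on the minus strand at chrX:139085237-139085486. Capitals mark matches, on either strand, to 4 motifs of liver and acute phase genes: STAT (TTCNNNGAA), C/EBP (TTNNGCAA), a partial HNF1 site (GTTAAT) and the TATA box (TATAAA).
Serpina12: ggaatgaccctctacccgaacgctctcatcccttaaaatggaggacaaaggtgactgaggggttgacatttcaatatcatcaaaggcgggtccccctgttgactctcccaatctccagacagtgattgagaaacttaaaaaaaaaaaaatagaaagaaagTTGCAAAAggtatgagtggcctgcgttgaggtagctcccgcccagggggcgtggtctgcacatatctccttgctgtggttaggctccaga
Serpina3n: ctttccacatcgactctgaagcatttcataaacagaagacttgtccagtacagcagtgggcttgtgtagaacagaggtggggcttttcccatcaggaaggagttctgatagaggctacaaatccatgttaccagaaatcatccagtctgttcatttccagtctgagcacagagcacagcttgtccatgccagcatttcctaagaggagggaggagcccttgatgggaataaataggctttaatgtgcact
Serpina7: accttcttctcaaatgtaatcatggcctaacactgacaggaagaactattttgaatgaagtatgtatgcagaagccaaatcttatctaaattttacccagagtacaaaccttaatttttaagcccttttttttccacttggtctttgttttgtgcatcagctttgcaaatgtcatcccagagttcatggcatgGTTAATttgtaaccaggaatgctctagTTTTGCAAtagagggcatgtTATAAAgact
Serpina12 held a C/EBP match, TTGCAAAA, 90 bases before the start site. Serpina7 held a partial HNF1 match 57 bases, a C/EBP match 30 bases and a TATA box match 10 bases before the start site of the window shown. The table lists a second start site for Serpina7, from which the same matches lie 74, 47 and 27 bases away. No match overlapped another, and Serpina3n held none of the 4 in these bases. Among 32851 promoter windows of 300 bases, which run 50 bases past the start site, 8.3% held the STAT, 10.8% the C/EBP, 7.1% the partial HNF1 and 13.6% the TATA box letters, so single matches are common and are a description only.

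All values below are log2(intensity + 16) of deposited intensities that were first quantile normalized, a scale whose lowest possible level is 4, and a change is a treated group's mean minus the mean of its own same-day controls. A level of 6.13 was taken as background, the 95% point of 39 olfactory receptor gene means. Changes carry standard errors and group means SDs. A transcript was called, and only then is said to have risen or fallen, at a Benjamini-Hochberg adjusted p under 0.05 in limma across all genes tested. All 10 measured hepatocyte marker genes were above background. Median deposited intensities were 12.5 on propiconazole day 4 replicate 2 and 19.2 to 36.1 on the other arrays. On that array the Gapdh probe sets at the 3′ end exceeded those at the 5′ end by 6.39, against -0.37 to 0.22 elsewhere, and its mean correlation with its own group was 0.82, against 0.95 to 0.98 for arrays of the other 9 groups. Because all groups shared 1 estimate of each gene's spread, results for members that turn on this array are given without it as well. Calls of other genes are given only from the fit that holds it. For Actb the 3′ excess on day 4 was 0.80 to 1.30 in conazole controls, 0.62 to 1.84 under propiconazole and 0.76 to 0.94 under triadimefon. On day 30 it was 0.37, 0.35 to 0.47 and 0.42 to 0.47 in the same order. It was 0.28 to 0.40 in the phenobarbital experiment's groups on both days. In the conazole experiment this measure thus cannot be told apart from day.

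Seen over all 38 arrays, the members fell into abundant and dim transcripts. Serpina10 (mean level 11.96), Serpina6 (11.71) and Serpina3n (11.68) were above background on every array, and 1.69%, 2.23% and 2.29% of the genes tested had a higher mean signal. Serpina4-ps1 (10.62) and Serpina12 (10.04) were also above background on every array. Serpina7 averaged 7.30 and was above background on 37 arrays, and Serpina9 averaged 6.67 and was above it on 28. These are levels of single probe sets of differing sequence, so their order across genes is not an order of transcript amount.

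Variation also differed between members. Serpina3n stayed between 11.30 and 12.10 on all arrays and Serpina10 between 11.43 and 12.72. Serpina4-ps1 spanned 7.09 to 12.43, Serpina12 6.55 to 11.96 and Serpina9 4.00 to 8.45. For each member, groups that were neighbours in the order of their means had overlapping arrays in every case, so the order of the 10 groups was read only through the tests below.

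Under 30 days of propiconazole, Serpina4-ps1 and Serpina9 fell and Serpina6 rose. Of the 7 measured members 1 was called higher and 2 lower, where 10.8% of all genes tested were called (5.29% higher and 5.53% lower). The members' median change was -0.18, against 0.00 over all genes tested. Arrays of the groups did not overlap for 4 members, namely Serpina4-ps1 and Serpina9, which were lower (12.4% of all genes), and Serpina6 and Serpina7, which were higher (11.9% of all genes).

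The pseudogene transcript Serpina4-ps1 stood at 8.78, 7.39 and 7.20 in propiconazole livers, against 10.19, 11.51 and 11.69 in controls. Every treated array was below every control array. The means were 7.79 ± 0.86 and 11.13 ± 0.82 (SD, n = 3 each), 10.1-fold apart on this scale, with limma's adjusted p = 0.000394 and a 95% interval of the change of -4.56 to -2.12. Its other 2 probe sets were each above background on only 1 of the 3 propiconazole arrays, so the sizes of their changes of -4.94 ± 0.88 and -4.19 ± 0.75 are uncertain (limma adjusted p = 0.000445 and 0.000453 over probe sets). Of these, 1 is of the type that can bind related transcripts, and near-identical serpin copies may share its signal.

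Serpina9 was at 4.00, 4.74 and 4.23 in propiconazole livers, all under background, against 6.87, 8.11 and 8.00 in controls, all above it. The lowest of these treated values is the floor of the scale. The measured means were 4.32 ± 0.38 and 7.66 ± 0.69 (SD, n = 3 each, limma adjusted p = 3.16e-05). Since the treated level is only a bound, the fall was at least 2.88-fold, taking the higher of background and the array's own value.

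Serpina6, the glucocorticoid carrier, moved the other way. It read 12.33, 12.35 and 12.67 in propiconazole livers, against 10.51, 11.32 and 11.67 in controls, again without overlap. The change was 1.28 ± 0.22 (2.43-fold, limma adjusted p = 0.000194), with the control arrays spread over a wider range than the treated ones. Serpina7, the thyroxine carrier, read 8.27, 8.17 and 8.68, against 5.90, 7.73 and 7.23 in controls. That difference of 1.42 ± 0.56 did not pass (limma adjusted p = 0.102, 95% interval 0.28 to 2.56), but it passed when propiconazole day 4 replicate 2 was left out of the shared fit (1.42 ± 0.48, limma adjusted p = 0.0406). Serpina12 (-0.54 ± 0.79), Serpina3n (-0.18 ± 0.10) and Serpina10 (-0.13 ± 0.18) did not pass (limma adjusted p of 0.299 to 0.765).

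**Figure D1:**
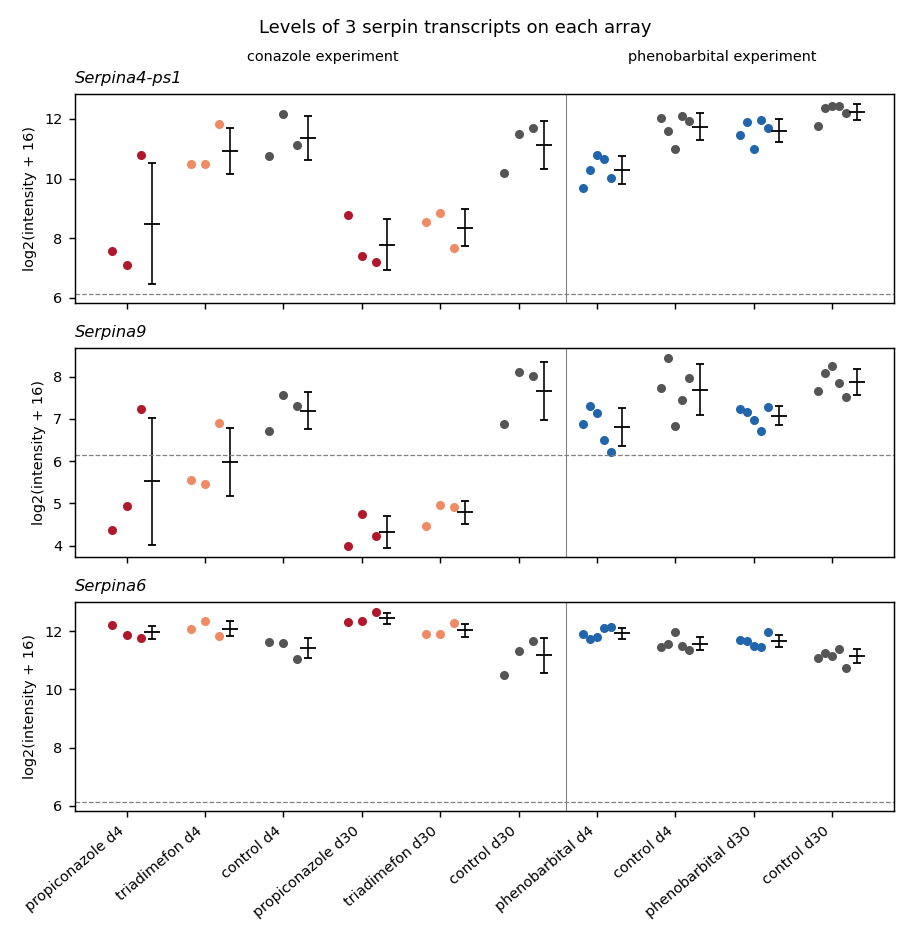
Levels of Serpina4-ps1, Serpina9 and Serpina6, as log2(intensity + 16) on the vertical axis, on each of the 38 arrays by group. Points are arrays, bars are the mean and SD of a group, and the dashed line is background at 6.13. On day 30 the propiconazole and triadimefon points lie below all conazole control points for Serpina4-ps1 and Serpina9 and above them for Serpina6.

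After 30 days of triadimefon the same 3 members were called, again with Serpina4-ps1 and Serpina9 lower and Serpina6 higher. The counts of 1 higher and 2 lower of 7 stand beside 5.4% of all genes called (2.41% higher and 3% lower). Both conazoles were set against the same 3 control arrays, so the comparisons are not independent of each other. The members' median change was 0.04, against 0.00 over all genes. Arrays did not overlap for Serpina6, which was higher (9.27% of all genes), and for Serpina4-ps1, Serpina9 and Serpina12, which were lower (11.8% of all genes).

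Serpina4-ps1 read 8.53, 8.85 and 7.66 in triadimefon livers, against the control values of 10.19, 11.51 and 11.69. Its change was -2.78 ± 0.60 (6.87-fold lower, limma adjusted p = 0.00528) with no overlap, and the call ended in the fit on the 6 arrays compared (0.0613). Of its other 2 probe sets, 1 changed by -2.72 ± 0.88 and did not pass (limma adjusted p = 0.0763 over probe sets), and 1, above background on 2 of the 3 triadimefon arrays, changed by -3.19 ± 0.75 (0.0122). Serpina9 read 4.47, 4.97 and 4.92 in triadimefon livers, all under background, against 6.87, 8.11 and 8.00 in controls. It was at least 2.88-fold lower (limma adjusted p = 0.000489), the same bound as for propiconazole because background stands in for the treated level in each.

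Serpina6 stood at 11.90, 11.92 and 12.27 in triadimefon livers and at 10.51, 11.32 and 11.67 in controls. All treated arrays were higher, and the change was 0.86 ± 0.22 (1.82-fold, limma adjusted p = 0.0156). This call rested on single arrays: without control replicate 1, the lowest of all 38, the change was 0.53 (limma adjusted p = 0.157), and without triadimefon replicate 3 it was 0.74 (0.0776). Serpina12, the kallikrein 7 inhibitor, read 6.60, 9.71 and 8.07, against 10.42, 10.64 and 9.95 in controls. Every triadimefon array was lower than every control array, but the treated arrays spread over more than 3 log2 units and the change of -2.21 ± 0.79 did not pass (limma adjusted p = 0.0984, 95% interval -3.82 to -0.60). It passed without triadimefon replicate 2 (-3.00, limma adjusted p = 0.0315) and without the propiconazole array of low quality in the shared fit (-2.21, 0.0432). Serpina7 read 7.58, 7.44 and 9.60 under triadimefon, against 5.90, 7.73 and 7.23 in controls, and was not called (1.25 ± 0.56, limma adjusted p = 0.207). Serpina3n and Serpina10 changed by 0.04 ± 0.10 and 0.21 ± 0.18 and were not called.

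On day 4 of propiconazole, Serpina4-ps1 and Serpina9 were called lower and no member higher, so 2 of 7 members were called where 13.9% of all genes were (7.36% higher and 6.53% lower). Serpina4-ps1 read 7.58, 7.09 and 10.80 in propiconazole livers, against 10.76, 12.18 and 11.13 in controls. Serpina9 read 4.38, 4.95 and 7.23, against 6.71, 7.55 and 7.31. In each, 2 treated arrays were far below the controls and the third lay inside the control range.

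The mean changes were -2.87 ± 0.60 for Serpina4-ps1 (limma adjusted p = 0.00202) and -1.67 ± 0.48 for Serpina9 (0.0192), with Serpina9 above background on 1 of 3 treated arrays. The SDs among the 3 propiconazole arrays were 2.02 and 1.51, which the shared spread understates. For Serpina9 the call ended without propiconazole replicate 1 (-1.10, limma adjusted p = 0.116), without propiconazole replicate 2 (-1.38, 0.1), without control replicate 2 (-1.49, 0.08) and without control replicate 3 (-1.61, 0.0511). Serpina4-ps1 stayed called without any single array (-4.02 to -2.17), but neither was called in the fit on the 6 arrays compared (limma adjusted p = 0.481 and 0.532).

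Serpina12 had the same split among its propiconazole arrays on day 4. It read 8.40, 6.55 and 10.98, against 9.59, 10.45 and 11.30 in controls, a change of -1.80 ± 0.79 that did not pass (limma adjusted p = 0.126). Without propiconazole replicate 3, which was in the control range, it passed (-2.97, limma adjusted p = 0.00503). Serpina6 read 12.23, 11.88 and 11.78, against 11.63, 11.60 and 11.03, with all treated arrays higher (9.37% of all genes did so), yet the change of 0.54 ± 0.22 did not pass (limma adjusted p = 0.0902). Serpina7 stood at 7.17, 9.35 and 6.56 in propiconazole livers and at 7.17, 8.16 and 7.42 in controls, and its highest treated value came from replicate 2. Serpina10 was also highest on replicate 2 (12.72), the highest of its 38 values. Serpina7, Serpina10 and Serpina3n changed by 0.11 ± 0.56, 0.16 ± 0.18 and -0.06 ± 0.10, and none passed.

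No member was called on day 4 of triadimefon, where 3.75% of all genes were called by limma. At an unadjusted p under 0.05 in that fit, Serpina6 (0.67 ± 0.22, limma adjusted p = 0.0734), Serpina12 (-2.06 ± 0.79, 0.146), Serpina9 (-1.22 ± 0.48, 0.157) and Serpina3n (-0.22 ± 0.10, 0.229) differed. Arrays parted for Serpina6, which was higher (10.5% of all genes), and for Serpina3n and Serpina10, which were lower (8.9% of all genes). Serpina6 read 12.08, 12.36 and 11.83 in triadimefon livers, above the 11.63, 11.60 and 11.03 of controls on every array. Serpina9 read 5.56, 5.45 and 6.89, against 6.71, 7.55 and 7.31, so 2 treated arrays were under background and the third within the control range. Serpina12 read 7.01, 8.07 and 10.08, against 9.59, 10.45 and 11.30, with the third array again near the controls. Without that replicate, Serpina12 (-2.91, limma adjusted p = 0.0371) and Serpina6 (0.80, 0.0478) passed. Serpina4-ps1 read 10.47, 10.48 and 11.82 in triadimefon livers, inside the control range of 10.76 to 12.18 on 1 array and just under it on the other 2, and changed by -0.43 ± 0.60.

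**Figure D2:**
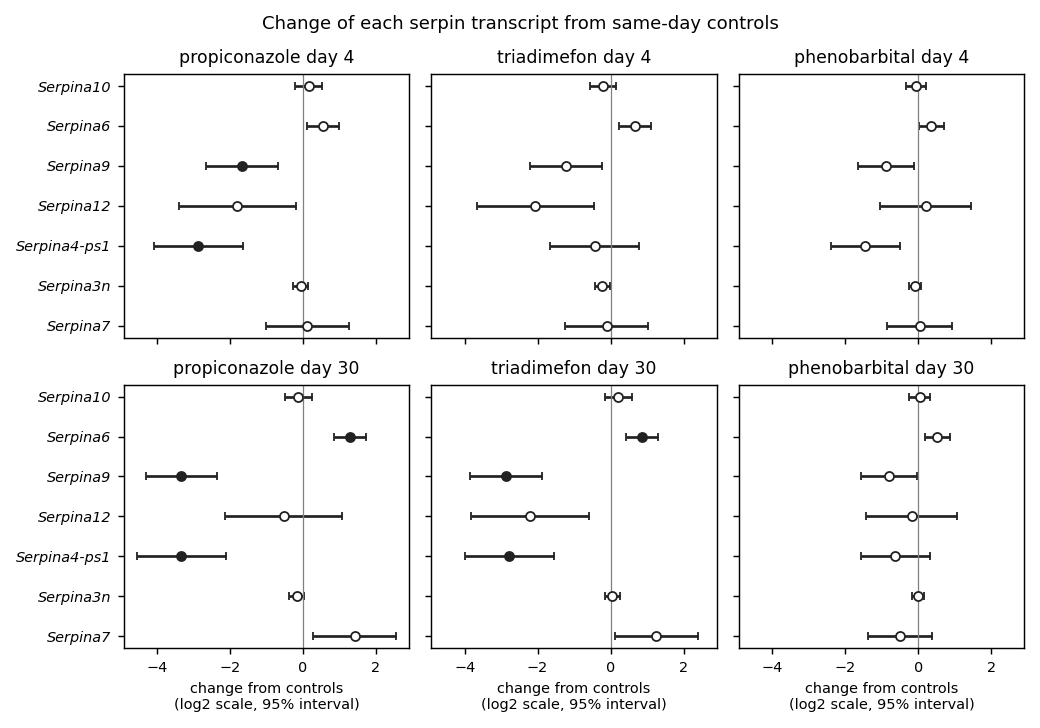
Change of each of the 7 measured members from same-day controls, on the log2 scale along the horizontal axis, with a panel for each compound and day. Points are limma estimates, bars their 95% intervals, and filled points were called. Filled points are Serpina4-ps1 and Serpina9 for propiconazole on both days and for triadimefon on day 30, and Serpina6 for both conazoles on day 30.

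In the main fit phenobarbital changed no member past the threshold on either day, where 0.677% of all genes were called on day 4 and 0.479% on day 30. The groups of 5 nevertheless parted for some members. On day 4, Serpina4-ps1 read 9.67, 10.29, 10.79, 10.66 and 10.03 in phenobarbital livers, against 12.03, 11.61, 11.00, 12.11 and 11.93 in controls. All 5 treated arrays were lower than all controls (2.22% of all genes did so), and the change was -1.45 ± 0.46 (unadjusted p = 0.00393, limma adjusted p = 0.176). Among the alternative fits, Serpina4-ps1 passed with array quality weights (-1.46, limma adjusted p = 0.00359) and in the fit on only the arrays compared (-1.45, 0.0228). Serpina9 on day 4 averaged 6.80 ± 0.45 in phenobarbital livers and 7.69 ± 0.60 in controls (SD, n = 5 each), a change of -0.88 ± 0.37 (unadjusted p = 0.0238, limma adjusted p = 0.388) with overlapping arrays. With array quality weights it passed (-0.94, limma adjusted p = 0.0343).

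On day 30, Serpina6 read 11.71, 11.66, 11.50, 11.46 and 11.97 in phenobarbital livers, against 11.10, 11.27, 11.17, 11.40 and 10.75 in controls. All treated arrays were higher (2.24% of all genes did so), with a change of 0.52 ± 0.17 (unadjusted p = 0.00378, limma adjusted p = 0.276). With array quality weights Serpina6 passed (0.47, limma adjusted p = 0.0309). Serpina9 read 7.24, 7.16, 6.98, 6.72 and 7.29, against 7.66, 8.09, 8.25, 7.85 and 7.52 in controls. Here all treated arrays were lower (1.97% of all genes did so), with a change of -0.80 ± 0.37 (unadjusted p = 0.0399, limma adjusted p = 0.683), and all stayed above background. In the fit on only the arrays compared Serpina9 passed (-0.80 ± 0.15, limma adjusted p = 0.0344). The shared spread was thus wider than that of the phenobarbital experiment's own arrays for Serpina9 here. The same held for Serpina4-ps1 on day 4, with standard errors of 0.46 and 0.25. A missing call under phenobarbital in the main fit is therefore not a sign of no change. Serpina4-ps1 averaged 11.61 ± 0.39 under phenobarbital and 12.23 ± 0.28 in controls, a change of -0.62 ± 0.46. On day 4 Serpina6 averaged 11.94 ± 0.19 under phenobarbital and 11.58 ± 0.23 in controls, a change of 0.36 ± 0.17 (limma adjusted p = 0.461). The remaining members changed by -0.10 to 0.21 on day 4 and by -0.50 to 0.05 on day 30, with limma adjusted p of at least 0.853.

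**Figure D3:**
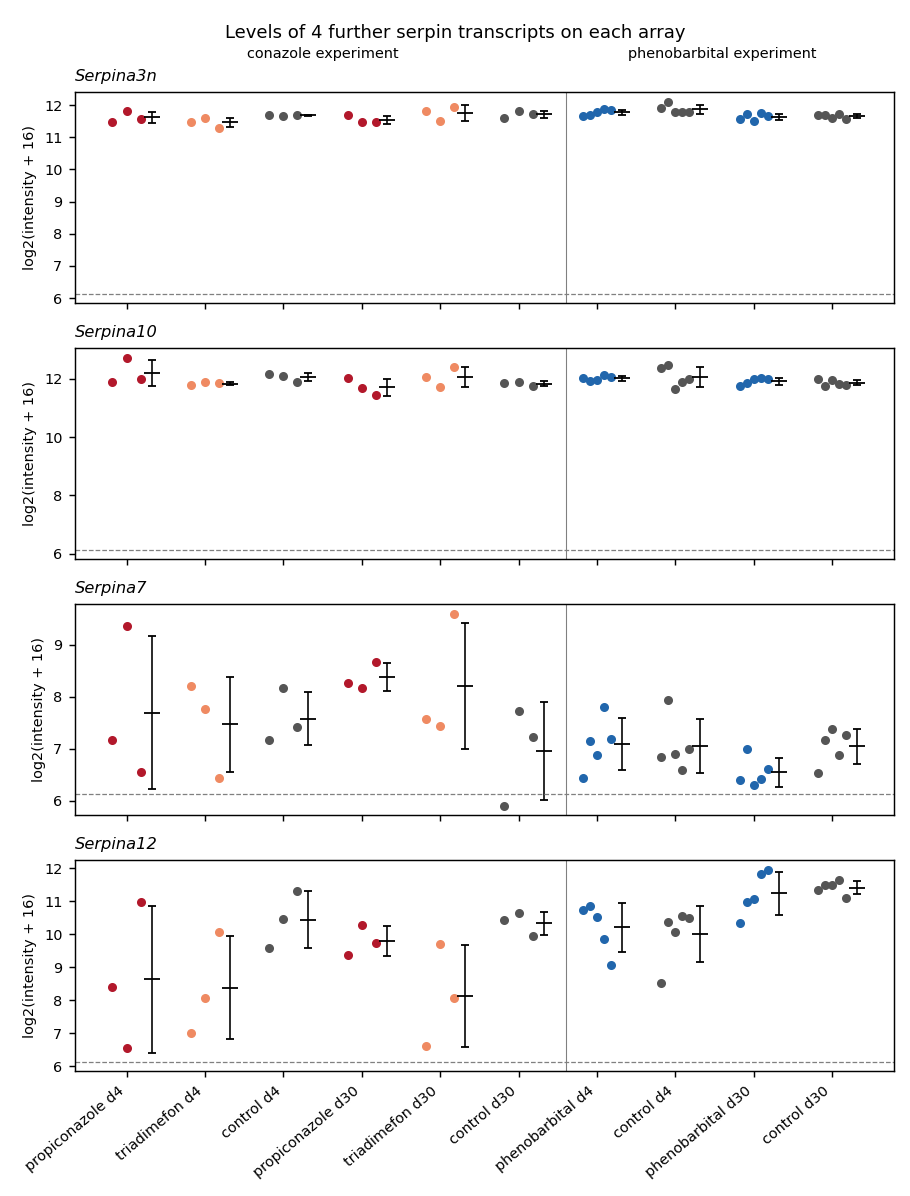
Levels of Serpina3n, Serpina10, Serpina7 and Serpina12 as log2(intensity + 16) on each of the 38 arrays, by group. Points are arrays, bars the mean and SD of a group, and the dashed line is background at 6.13. Serpina3n and Serpina10 stay between 11.30 and 12.72 throughout, while Serpina7 and Serpina12 spread widely within single conazole groups.

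Whether the compounds differed was tested on the changes themselves, in 6 comparisons of 7 members each. On day 4 the propiconazole diet gave lower Serpina4-ps1 than the triadimefon diet, at 7.58, 7.09 and 10.80 against 10.47, 10.48 and 11.82. The difference was -2.43 ± 0.60 (limma adjusted p = 0.0339), where 1.84% of all genes were called (0.981% higher and 0.857% lower). Both doses and intakes differed between these diets. The call ended without propiconazole replicate 2 (-1.73, limma adjusted p = 0.213), without triadimefon replicate 1 (-2.66, 0.0585), replicate 2 (-2.65, 0.0505) or replicate 3 (-1.99, 0.126), and in the fit on the 6 arrays compared (0.91). On day 30 the 2 conazole diets were not shown to differ for any member, and 3.9% of all genes were called. The day 30 differences, propiconazole minus triadimefon, were -0.56 for Serpina4-ps1 (95% interval -1.78 to 0.67), 0.42 for Serpina6 (-0.02 to 0.86) and 1.67 for Serpina12 (0.06 to 3.28, limma adjusted p = 0.268).

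Between propiconazole and phenobarbital, 1.92% of all genes were called on day 30 (0.987% higher and 0.931% lower). Serpina9 was at least 2.88-fold lower under propiconazole and 1.74-fold lower under phenobarbital, each than its own controls. The measured difference of these changes, -2.54 ± 0.61 (limma adjusted p = 0.0243), takes propiconazole levels that were under background on all 3 arrays, so its size depends on the floor of the scale. With a pseudocount of 64 it was -1.26 (limma adjusted p = 0.09) and with values as deposited -2.17 (0.0641). The call also ended without control day 30 replicate 2 (-2.31, limma adjusted p = 0.0638), control day 30 replicate 3 (-2.36, 0.0644) or propiconazole day 30 replicate 3 (-2.49, 0.0567). For Serpina4-ps1 the difference was -2.71 ± 0.76 and did not pass (limma adjusted p = 0.0538). It passed without propiconazole day 4 replicate 2 in the shared fit (-2.71, limma adjusted p = 0.0215), without control day 30 replicate 1 (-3.18, 0.0361) and without propiconazole day 30 replicate 1 (-3.21, 0.0236). Its other 2 probe sets also passed, at -4.42 ± 1.11 and -3.72 ± 0.95 (limma adjusted p = 0.035 and 0.037 over probe sets), with the background limit given above. For Serpina6 the difference was 0.76 ± 0.27 (limma adjusted p = 0.151). For triadimefon on day 30 the differences from the phenobarbital change were -2.07 ± 0.61 for Serpina9 (limma adjusted p = 0.122) and -2.16 ± 0.76 for Serpina4-ps1 (0.204), and 0.451% of all genes were called. Those of Serpina7 were 1.92 ± 0.71 for propiconazole (0.161) and 1.75 ± 0.71 for triadimefon (0.29). In the fit on only the arrays compared, Serpina9 (limma adjusted p = 0.00857) and Serpina4-ps1 (0.0236) passed for triadimefon. There Serpina4-ps1 (0.00844) and Serpina7 (0.0237) also passed for propiconazole. On day 4 no member's change differed from that under phenobarbital for either conazole, where 1.83% and 0.0451% of all genes were called. Without propiconazole day 4 replicate 3, the propiconazole differences from phenobarbital on day 4 passed for Serpina12 (-3.18, limma adjusted p = 0.025), Serpina4-ps1 (-2.58, 0.00586) and Serpina9 (-1.64, 0.0352), as did that of Serpina9 from triadimefon (-1.30, 0.0366). Experiments had separate controls, so each difference from phenobarbital sets a change against a change, and Serpina9 was under background on all day 30 triadimefon arrays as well.

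Between day 4 and day 30 no member's change was shown to differ under any compound, where 1.95%, 1.31% and 0.00564% of all genes were called for propiconazole, triadimefon and phenobarbital. At an unadjusted p under 0.05 in limma, 4 differences stood out. The day 30 change minus the day 4 change was -2.35 ± 0.85 for Serpina4-ps1 under triadimefon (limma adjusted p = 0.172), -1.66 ± 0.68 and -1.65 ± 0.68 for Serpina9 under propiconazole and triadimefon (0.206 and 0.244), and 0.74 ± 0.30 for Serpina6 under propiconazole (0.209). The propiconazole difference of Serpina9 passed without propiconazole day 4 replicate 1 (-2.23, limma adjusted p = 0.0363). Both Serpina9 differences rest on levels under background on all 6 treated arrays of day 30 and on 4 of the 6 of day 4, so their sizes carry little information. The 3′ excess of Actb also differed between the days of the conazole experiment, controls included, and its part in these differences was not tested.

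Serpina9, Serpina12 and Serpina4-ps1 are close neighbours. In the RefSeq gene table, used for order only, 28 of the 41 genes listed from Serpina10 to Serpina3n on chromosome 12 carry a Serpina symbol, 13 of these were measured and 10 were above background. Serpina11, Serpina9, Serpina12 and Serpina4-ps1 follow one another in that order, with 1 noncoding gene before the last. Serpina11, which is no member, stood at 10.51 ± 0.64 in propiconazole livers on day 4, against 11.80 ± 0.11 in controls, and fell by 1.29 ± 0.28 (limma adjusted p = 0.00245). It also fell by 0.97 ± 0.28 on day 30 of propiconazole (0.0208) and by 0.97 ± 0.28 on day 4 of triadimefon (0.0428), while the day 30 triadimefon change of -0.66 ± 0.28 did not pass.

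Of the measured genes from Serpina10 to Serpina3n that are no members, Serpina11 was the only one called. Serpina3i averaged 7.16 and changed by -0.59 ± 0.53 on day 4 and 0.31 ± 0.53 on day 30 of propiconazole and by 0.18 ± 0.53 and -0.74 ± 0.53 under triadimefon. Serpina1f, Serpina5 and Serpina3a had means under background. Serpina1b and Serpina1c, 2 of the near-identical alpha-1-antitrypsin genes whose probe sets may share transcripts, averaged 13.38 and 13.06 and changed by -0.17 to 0.09 in the 6 comparisons with controls, none of them called. Serpina10 at one end and Serpina3n at the other were not called either, whereas Serpina6, next but one to Serpina10, was higher in both conazole groups on day 30. Of the 8 measured other clade A serpins, the called ones were Serpina11 and, on day 4 of propiconazole, angiotensinogen (Agt, -1.17 ± 0.34, limma adjusted p = 0.0188). The propiconazole arrays of Agt ran from 8.77 to 11.53 (median 11.24), against 11.59 to 11.83 in controls, so much of its change came from 1 array. Of 17 measured serpins of other clades, Serpinf1 (pigment epithelium-derived factor, -0.74 ± 0.20) and Serpinf2 (alpha-2-antiplasmin, -0.30 ± 0.09) fell on day 4 of propiconazole. The intracellular Serpinb6a rose on day 30 (1.29 ± 0.24, limma adjusted p = 0.000507). Shares of all genes called were 13.9% and 10.8% on days 4 and 30 of propiconazole and 3.75% on day 4 of triadimefon. These few calls are therefore no sign of a response of serpins as a family. The day 4 propiconazole arrays of Serpinf1 ran from 10.87 to 12.57 (median 12.33), against 12.60 to 12.79 in controls, so here too 1 array made much of the change. Those of Serpinf2 ran from 12.25 to 12.81, against 12.76 to 12.86. The day 4 calls of Agt, Serpinf1 and Serpinf2 are given only from the fit that holds propiconazole replicate 2.

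**Figure D4:**
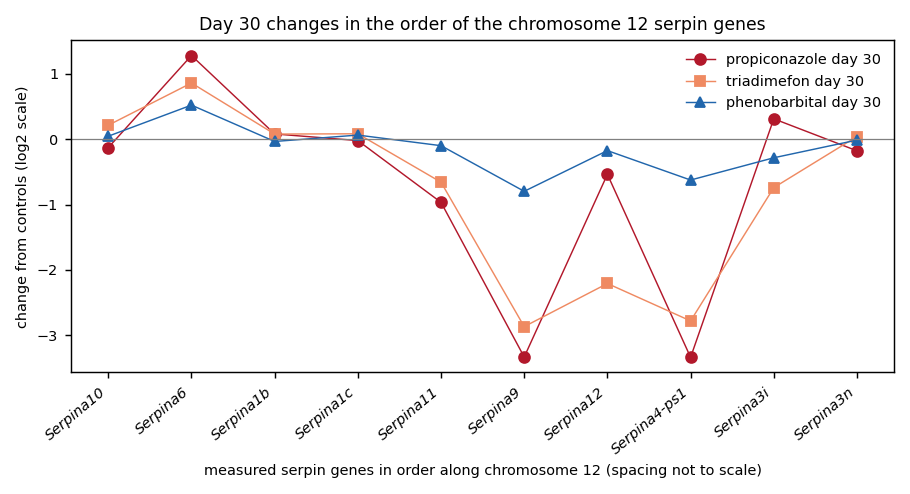
Day 30 change from controls, on the log2 scale, of the 10 Serpina genes above background between Serpina10 and Serpina3n, in their order along chromosome 12 with spacing not to scale. Symbols are compounds and lines join them only to guide the eye. Serpina9 and Serpina4-ps1 lie lowest for both conazoles, Serpina6 lies highest, and Serpina1b and Serpina1c lie near 0.

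Across arrays Serpina9 and Serpina4-ps1 were each among the genes most like the other. Likeness was Pearson's r over the 38 arrays after subtracting each experiment's mean, among 8635 genes above background, and it is a description in which treatment effects and shared arrays count. For Serpina4-ps1 the closest were Serpina9 (r = 0.84), Agap3 (0.82) and the male-biased coenzyme A hydrolase Nudt7 (0.81). For Serpina9 they were histidine ammonia-lyase Hal (0.87), Serpina4-ps1 (0.84) and the mitochondrial DNA polymerase Polg (0.84). Between Serpina4-ps1 and Serpina9, r was 0.88 over the 18 conazole arrays, 0.68 over the 20 phenobarbital arrays and 0.69 over all 38 after each group's mean was removed. The propiconazole day 4 arrays, whose SDs of 2.02 and 1.51 were the widest of any group, weigh heavily in the last value.

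For Serpina6 the closest were Papss2 (0.83), which makes the sulfate donor of sulfotransferases, and the glutathione S-transferases Gstt3 (0.83) and Gstm2 (0.81). Its r with Serpina9 was -0.72 over conazole and -0.67 over phenobarbital arrays, but -0.14 over all arrays once group means were removed. Serpina3n was most like the acute phase gene Saa1 (0.76), Osbpl9 (0.73) and Nfkbiz (0.68), and Serpina10 was most like Steap4 (0.83), the acute phase gene Orm1 (0.80) and Vps41 (0.79). Without propiconazole day 4 replicate 2 the Serpina10 values were 0.75, 0.76 and 0.70. Serpina3n and Serpina10 correlated with each other at 0.73 after group means were removed. Serpina7 was most like St6gal1 (0.73), Ralb (0.69) and Cd302 (0.66), and Serpina12 most like Pnpla7 (0.74), Aadat (0.72) and Col27a1 (0.71).

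**Figure D5:**
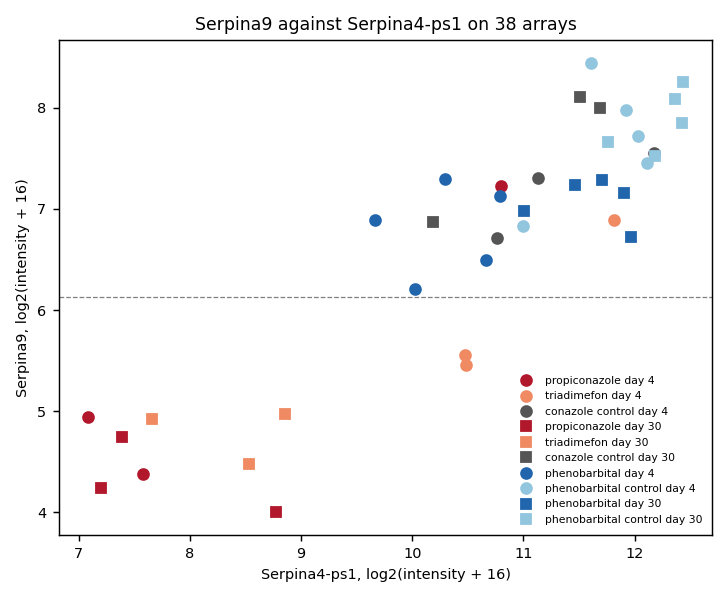
Serpina9 (vertical axis) against Serpina4-ps1 (horizontal axis), both as log2(intensity + 16), on the 38 arrays. Points are arrays, colours are compounds, circles are day 4 and squares day 30, and the dashed line is background for Serpina9 at 6.13. The 6 day 30 propiconazole and triadimefon arrays and 2 propiconazole day 4 arrays lie at the lower left, and controls lie at the upper right.

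The genes that the members act with were counted in the same comparisons. Among 12 measured proteases and ligand partners, 1 was higher and 3 lower on day 4 of propiconazole, where 13.9% of all genes were called, and 1 was lower on day 30, where 10.8% were, with none called under triadimefon or phenobarbital. Coagulation factor XI (F11), a target of Serpina10, fell by 0.74 ± 0.21 on day 4 and by 1.06 ± 0.21 on day 30 of propiconazole (limma adjusted p = 0.0181 and 0.00114). Protein Z (Proz), the cofactor of Serpina10, fell by 0.58 ± 0.14 on day 4 (0.00594), plasma kallikrein (Klkb1) fell by 0.41 ± 0.11 (0.0152), and the chaperone Hspa5, reported to bind human vaspin, rose by 0.51 ± 0.17 (0.0403). Serpina10 itself was not called in any comparison.

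Of 15 measured genes of glucocorticoid activation, reception and response, 1 rose and 2 fell on day 4 of propiconazole, where 13.9% of all genes were called. On day 4 of triadimefon 1 rose and 1 fell, where 3.75% were called, and none was called on day 30, when Serpina6 was higher. Called on day 4 were Sgk1 (1.77 ± 0.31 and 1.07 ± 0.31 for propiconazole and triadimefon), Zbtb16 (-1.23 ± 0.30 and -1.48 ± 0.30) and, for propiconazole, Klf9 (-1.05 ± 0.24). Of 16 measured genes of thyroid hormone transport, conversion and response, 2 rose and 1 fell on day 30 of propiconazole, where 10.8% of all genes were called. On day 30 of triadimefon 1 rose and 1 fell, where 5.4% were called. The carrier Slco1a4, also a target of the drug-sensing receptors, rose by 2.92 ± 0.58 under propiconazole and 1.98 ± 0.58 under triadimefon, and the response gene Thrsp rose by 1.18 ± 0.29 under propiconazole. Ncoa1 fell under propiconazole (-0.60 ± 0.19) and the carrier Slco1a1 under triadimefon (-0.65 ± 0.18). On day 4 of propiconazole 1 rose and 2 fell, namely Slc16a10, Rxra and Klf9.

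The acute phase list, to which Serpina3n is related, had 3 of 32 measured genes higher and 2 lower on day 30 of propiconazole, where 10.8% of all genes were called. On day 30 of triadimefon 6 were higher and 1 lower, where 5.4% of all genes were called. The iron-sequestering protein Lcn2 was called in both, with means of 10.34 and 10.99 against 4.50 in controls, as was Orm3, with 9.52 and 9.15 against 4.13. Both were under background on all control arrays. Under triadimefon Orm2 rose to 10.81, against 6.99 in controls, and hepcidin (Hamp) fell by 2.18 ± 0.55. Crp rose by 0.52 ± 0.12 under propiconazole and by 0.56 ± 0.12 under triadimefon, and Itih3 fell by 0.80 ± 0.20 under propiconazole. Serpina3n was not called in any comparison. On day 4 of propiconazole, where 13.9% of all genes were called, 4 were higher, namely Orm3, Saa3, Cebpd and Crp, and Il6ra was lower. A2m was lower on day 4 of triadimefon, and Crp was higher on day 30 of phenobarbital.

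Of 13 measured male-biased liver genes, 7 fell on day 30 of propiconazole and 5 on day 30 of triadimefon, with none higher, where 5.53% and 3% of all genes were called lower. Their median changes were -1.40 and -0.65, against 0.00 over all genes in each. The largest change was that of Obp2a, which averaged 4.03 under propiconazole and 5.26 under triadimefon, against 9.58 in controls. Susd4 averaged 4.73 under propiconazole and 6.70 under triadimefon, against 9.44 in controls, and Cyp2u1 averaged 4.81 and 5.06, against 8.07. Obp2a and Cyp2u1 were under background on all 6 treated arrays and Susd4 on the 3 of propiconazole. The steroid dehydrogenase Hsd3b5 averaged 7.90 under propiconazole, with 2 of 3 arrays above background, against 11.98 in controls. On day 4, Cyp2u1 and Nudt7 fell under propiconazole and Cyp2u1 under triadimefon. Of 11 measured female-biased genes 5 rose and 1 fell on day 30 of propiconazole, where 5.29% of all genes were called higher and 5.53% lower. Cyp2b13, Cyp2b9 and Prom1 were among those higher, and Acot3, under background in both groups, was lower. Prom1 and Cyp3a44 rose on day 30 of triadimefon and Cyp3a44 on day 4 of propiconazole, while on day 30 of phenobarbital the female-biased Cyp2b9 and Cyp2b13 and the male-biased Moxd1 rose. Among 15 measured liver transcription factors, Cebpa (-1.24 ± 0.23) and Prox1 (-1.21 ± 0.31) fell on day 4 of propiconazole, Prox1 (-1.57 ± 0.31) and Foxa3 (-0.93 ± 0.27) fell and Rarb rose (1.15 ± 0.33) on day 30, and none was called under the other compounds. Of all genes 13.9% and 10.8% were called on days 4 and 30 of propiconazole.

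Genes that respond to the drug-sensing receptors CAR and PXR were called under all 3 compounds. Of 15 measured, 10 rose and 1 fell on day 4 and 10 rose on day 30 of propiconazole, 8 and 9 rose under triadimefon and 7 and 9 rose under phenobarbital. The shares of all genes called on days 4 and 30 were 13.9% and 10.8% for propiconazole, 3.75% and 5.4% for triadimefon, and 0.677% and 0.479% for phenobarbital. On day 30 Cyp2b10 rose by 5.94 ± 0.45 under propiconazole, 5.71 ± 0.45 under triadimefon and 4.09 ± 0.35 under phenobarbital.

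Markers of other cell types moved with some of these groups, and their part in the members' changes was not tested. In bulk liver, fewer cells of a type and less RNA per cell cannot be told apart. The marker counts below stand beside the shares of all genes called on days 4 and 30. These were 13.9% and 10.8% for propiconazole, 3.75% and 5.4% for triadimefon, and 0.677% and 0.479% for phenobarbital. Summed hepatocyte marker intensity was 86226 to 92291 in propiconazole and 89949 to 92616 in triadimefon livers on day 30, against 92448 to 93837 in controls, and 82819 to 91320 in propiconazole livers on day 4, against 91269 to 91831. Of the 10 hepatocyte markers Fabp1 fell on day 4 of propiconazole (-0.21 ± 0.06) and Tdo2 on day 30 of triadimefon (-0.26 ± 0.06), with no other call.

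B cell markers bear on Serpina9 through its human counterpart. Of 9 measured, 3 were above background, and their summed intensity on day 30 was 1068 to 1475 in propiconazole and 986 to 1491 in triadimefon livers, against 1103 to 1231 in controls. Bcl6 and Ighm, at mean levels of 7.91 and 7.76, lead that sum, while Pax5, Cd79a, Cd79b and Ms4a1 had means under background. A sum led in this way was not taken as a measure of B cells. Mzb1 fell on day 30 of propiconazole (-0.68 ± 0.19). Neutrophil marker sums on day 30 were 453 to 5001 in propiconazole and 1879 to 2551 in triadimefon livers, against 523 to 682 in controls, and on day 4 they were 650 to 6937 in propiconazole livers, against 415 to 672. Of 9 neutrophil markers 3 were above background. S100a8 was called higher in these 3 groups, at 10.13 on day 4 of propiconazole against 5.39 in controls and at 9.88 and 10.28 on day 30 of propiconazole and triadimefon against 4.71, with all controls under background. Of 11 Kupffer cell and macrophage markers 5 rose on day 30 of triadimefon, with sums of 6389 to 19969 against 5372 to 6972 in controls, and none was called under propiconazole. Marco, Timd4, C1qc and Adgre1 were among them.

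Of 10 stellate cell markers Lrat (-1.12 ± 0.34) and Des (-1.83 ± 0.61) were lower on day 30 of propiconazole, both under background on all treated arrays, and Reln fell on day 4. Their summed intensity on day 30 was 4034 to 4650 in propiconazole livers, against 5571 to 8072 in controls. On day 4 of triadimefon the stellate marker Rgs5 fell. Of 10 endothelial markers Lyve1 (1.27 ± 0.35) and Cdh5 (0.65 ± 0.19) rose on day 30 of triadimefon, and Clec4g, Stab2 and, under background in both groups, Vwf were lower on day 4. Of 6 pancreatic acinar markers Cela1 fell on day 30 of propiconazole (-1.48 ± 0.40) and triadimefon (-1.44 ± 0.40). Acinar sums were 1001 to 1127 and 822 to 1385 there, against 1820 to 2480 in controls, and reached 38726 on 1 phenobarbital control array of day 4. Cela1 had the highest mean level of the 6, at 10.58 and above background on all 38 arrays, while Cpa1, Ctrb1 and Reg1 had means under background. Of 9 T and NK cell markers Ncr1 rose on day 4 of propiconazole and Nkg7 on day 30 of phenobarbital, and of 6 adipocyte markers Lep rose on day 4 of propiconazole. Nkg7 and Lep were under background in both groups. Of 38 olfactory receptor genes tested, 3 and 2 were called higher on days 4 and 30 of propiconazole.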

How the data were processed

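The authors deposited a linear intensity for each probe set on each array, with 21.15% of the values negative. Per the labels' protocols, purified liver RNA was amplified and carried a biotin label. The tools that summarised and scaled the probe sets are not given in the sources used here. All 38 arrays were quantile normalized, negative intensities were raised to 0, and log2(intensity + 16) was taken, which understates changes of dim genes. The platform annotation gave 1 symbol to 34958 of 45101 probe sets, and each gene took its probe set with the highest mean (18194 genes, of which 465 were constant and left out). The model in limma 3.58.1 (R 4.3.3) held a mean for each group over all arrays, with an intensity trend and 28 residual and 2.91 prior degrees of freedom, and p-values were two-sided and adjusted over 17729 genes in each of 15 comparisons. The method was tried on simulated data with normal noise and the same spread of a gene in all groups. That setting has neither the unequal group spreads nor the floor of the measured data, so it does not test those.

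The members and lists were chosen with earlier results of these data known. All members are described, and other lists are given as counts with, for the comparisons described, called genes from the 4 of largest change. Crp is named wherever it was called against controls, every other called serpin is named, and likeness names 3 genes per member. Alternatives were values as deposited, median centring, other pseudocounts, all probe sets of a gene, genes above background only, array weights, a replicate block, a fit on only the arrays compared, and each replicate left out. Leaving propiconazole day 4 replicate 2 out of every fit was chosen after seeing the data. No pair of arrays held identical values. Precision is limited by how many arrays a group holds and by how far a signal stands above background.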

Additional observations from a re-analysis of the deposited data

Results flagged for a closer look

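Among 28 sets of arrays of 1 group and member that were large enough to test, 1 held an array apart from the rest: Serpina12 on phenobarbital control day 4 replicate 1 was at 8.51, with the other 4 arrays of its group between 10.07 and 10.55. Chance marks about 1 in 20 such sets. Of 63 tests of a difference between effects, 2 passed. The propiconazole diet differed from the triadimefon diet on day 4 in Serpina4-ps1 by -2.43 (limma adjusted p = 0.0339), and the propiconazole change differed from the phenobarbital change on day 30 in Serpina9 by a measured -2.54 (limma adjusted p = 0.0243). Serpina9 was under background on all 3 propiconazole arrays of that day, so the size of that difference depends on the floor of the scale, and it was -1.26 with a pseudocount of 64 (limma adjusted p = 0.09).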

How the results depend on the processing

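The 3 members called on day 30 of propiconazole numbered 3 to 4 without single arrays, and the 3 on day 30 of triadimefon 2 to 4. Serpina4-ps1 and Serpina9 on day 30 of propiconazole and Serpina9 on day 30 of triadimefon stayed called in all 16 alternatives, Serpina6 on day 30 in 15 for propiconazole and 12 for triadimefon (adjusted p = 0.0556 with median centring), and Serpina4-ps1 on day 30 of triadimefon in 15 (0.0613 in the fit on only the arrays compared). The 2 calls on day 4 of propiconazole became 0 with array weights and 0 in the fit on only the arrays compared, and 1 to 3 without single arrays. All-gene counts there were 98 and 6, against 2463, and 1526 to 3856. In that fit the count of day 30 triadimefon was 1 (111 genes in all, against 958). Day 4 of triadimefon, with 0 members called, gave 1 with values as deposited (1658 genes, against 665) and 0 to 2 without single arrays. For phenobarbital, array weights called 2 members on day 4 and 1 on day 30 (829 and 605 genes, against 120 and 85), and 1 was called on each day when only the arrays compared were fitted (330 and 276 genes). The day contrasts gave 0 to 1 without single arrays. The 2 differences between compounds became 1 with values as deposited, 1 with a pseudocount of 64, 5 in the fit on only the arrays compared and 1 to 6 without single arrays. Serpina9 was under background on all propiconazole and triadimefon arrays of day 30, which leaves its fall a bound, and with a pseudocount of 64 its measured changes were -1.89 and -1.74, against -3.33 and -2.87. The cause of these moves was not tested. The fit on only the arrays compared has fewer arrays and takes its spread from those arrays alone. Its standard error was larger for Serpina4-ps1 on day 4 of propiconazole (0.95, against 0.60). It was smaller for Serpina9 on day 30 of phenobarbital (0.15, against 0.37). Of 2170 alternative values 0 reversed, 25 lost and 27 gained a call. With the replicate number as a block, 2, 3, 0, 3, 0 and 0 members were called in the comparisons with controls, 0 between days and 2 between compounds, so it changed no count. Replicate numbers were treated as names: 2 of 22 same-numbered pairs had r over 0.1, and 6 of 22 arrays correlated best with their own number. All of these were in the conazole experiment, where pairing was not shown to be absent.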
